A study of Mus musculus with 15 samples.

Results

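Angiotensin II (AngII) was compared with no AngII in mouse cardiomyocytes that all received low-dose cilengitide (ldCil), by RNA-Seq. The members are the 4 libraries with both agents (S13 to S16, AngII + ldCil) and the 4 with cilengitide only (S9 to S12, ldCil), 8 of the 15 libraries in all, chosen by their treatment labels. Genes entered the comparison when their mean over the 15 libraries was at least 0 on the log2 RPKM scale, and 12848 of the 14337 genes listed did so. RPKM is a read count per length of transcript and per size of library, so that levels of different genes can be set side by side.

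Cardiomyocytes were prepared from the whole hearts of C57/BL6 wild-type mouse pups of 1 to 3 days, cultured for 5 days and starved for 24 h in 0.5% FBS. Treatment began on day 6 and the cells were harvested on day 8. The ldCil cells received 20 nM cilengitide, the AngII + ldCil cells 1 µM AngII and the same 20 nM cilengitide, the AngII cells (4 libraries, S5 to S8) 1 µM AngII alone, and the control cells (3 libraries, S1 to S3) saline. Neither the labels nor the paper says whether libraries of a group are separate cultures or how pups were pooled, so each p-value measures only the spread between libraries, which may be technical.

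AngII is the peptide hormone of the renin-angiotensin system. It acts on cardiomyocytes mainly through the type 1 receptor, which couples to Gq, raises cytosolic calcium, activates protein kinase C and the RAS-ERK cascade and switches on immediate early genes, and in time the cells enlarge and re-express fetal genes. Cilengitide is a cyclic peptide that carries the RGD motif by which integrins αvβ3 and αvβ5 recognise matrix proteins. It blocks these integrins at high doses, and at low doses it has been studied for promoting the growth of blood vessels.

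The cells carried the genes of cardiomyocytes at the top of the range, together with those of other cardiac cells. *Actc1*, cardiac actin, read from 11.40 to 11.98 log2 RPKM in the 8 libraries. *Col1a1*, the collagen of fibroblasts, read from 9.04 to 10.30 and *Acta2*, smooth muscle actin, from 9.19 to 10.45. *Lyz2*, a lysozyme of macrophages, read from 4.87 to 8.45. Other cells were therefore present, and in bulk RNA a change in their number cannot be told apart from a change in RNA per cell. *Nppa*, *Actc1* and *Myh6* took only 3, 4 and 5 different values over the 15 libraries, and the same values recurred between libraries. The deposited values had been normalised to a common distribution, so these genes could differ only in steps.

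The sign on the first principal component split the libraries into 2 sets, each with libraries of both treatments compared here. On the first principal component of the genes tested, which carried 49.0% of the variance, S9 and S10 lay at −43.2 and −40.3, and S13 and S14 at −4.44 and −5.12. S11, S12, S15 and S16 lay at 39.6, 38.0, 42.0 and 24.7. Each set therefore holds 2 libraries of each treatment compared here, the first S9, S10, S13 and S14, and the second S11, S12, S15 and S16. Of the other libraries, S1, S2 and S3 (control) and S5 (AngII) also fell in the first set. S6, S7 and S8 (AngII) fell in the second, so control and AngII were not balanced over the sets. The labels name no batch. The sets were read from the data after seeing them, and the difference within each set is given below where the sets diverge.

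Interferon genes, fibroblast genes and immediate early genes set single libraries apart. Each gene of a list was set to a mean of 0 across all 15 libraries. Over 28 interferon response genes the mean was 2.41 in S9 and 2.15 in S10. It lay between −1.76 and −0.42 in the other 6 libraries compared. Over 12 fibroblast markers S16 stood lowest at −1.06, against −0.23 to 0.47 in the others. Over 12 macrophage and leukocyte markers S16 was also lowest at −1.39, against −0.65 to 0.54. Over 24 immediate early genes S11 was highest at 0.74, against −0.24 to 0.12. None of 9 erythroid markers was listed.

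**Figure D1:**
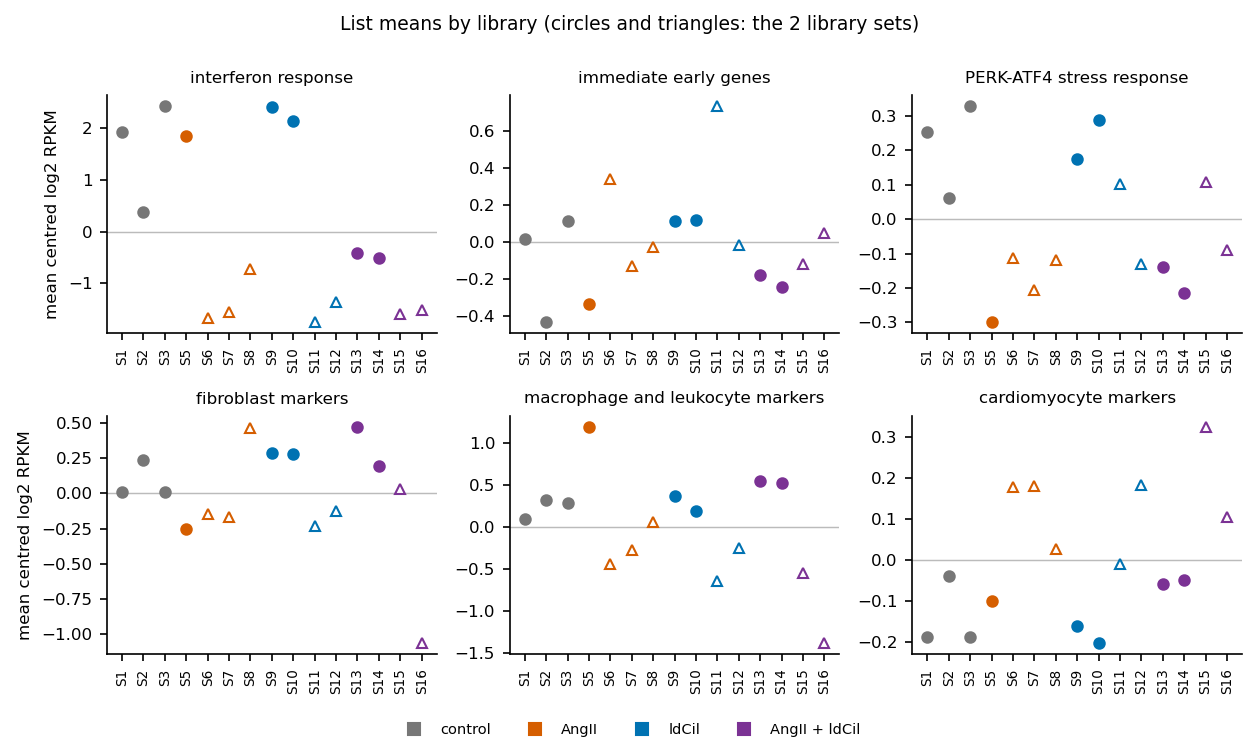
Mean centred log2 RPKM of 6 gene lists (y axis) in each of the 15 libraries (x axis), coloured by treatment, with circles for libraries below 0 and open triangles for libraries above 0 on the first principal component. S9 and S10 stand at 2.41 and 2.15 in the interferon panel, S11 at 0.74 in the immediate early panel and S16 at −1.06 in the fibroblast panel.

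The first question was which genes AngII altered in the presence of ldCil. At an adjusted p of 0.05 (limma, Benjamini-Hochberg over all 12848 genes), 0 genes differed between AngII + ldCil and ldCil, and the smallest adjusted p was 0.974. At an unadjusted p of 0.05 there were 652 genes (5.07%), against 642 that the threshold itself lets through, with 353 higher (2.75%) and 299 lower (2.33%). At an unadjusted p of 0.01 there were 96 genes (0.747%), against 128, of which 40 were higher (0.311%) and 56 lower (0.436%). The count at 0.05 was thus close to what the threshold lets through, and that at 0.01 below it. The 4 and 4 libraries did not overlap for 422 genes (3.28%), 285 higher (2.22%) and 137 lower (1.07%). Under random labels 4 and 4 libraries do not overlap with a probability of 0.0286, so this share was near that level. Over all genes the median log2 fold change was 0.03, the median size 0.14 and the median standard error 0.20. The genes named below are those with the smallest p and are described as such.

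With each library weighted by its distance from its group, 1623 genes passed the adjusted threshold. The weights ran from 0.113 for S5 to 7.01 for S1 over the 15 libraries. S9, S10, S13 and S14 had weights of 2.02 to 3.88 and the other 4 libraries 0.209 to 0.317, so that this count rests mainly on the first set. With a term for the 2 sets in the fit, 0 genes passed, with 101 higher and 185 lower at an unadjusted p of 0.01 and a smallest adjusted p of 0.258.

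Among the 10 lower genes with the smallest p stood genes of the cell surface, of cytokine signalling and of small GTPases. *Baalc*, which encodes a lipid-anchored protein of neural and muscle cells, read 3.13, 3.28, 3.75 and 3.42 log2 RPKM in S9 to S12 and 2.54, 2.59, 2.91 and 2.29 in S13 to S16. The groups did not overlap, and the log2 fold change was −0.81 (SE 0.185). The gene lies at chr15:38933144-38952912 on the plus strand (GRCm38). *Ncam1*, the neural cell adhesion molecule, read 7.06, 7.18, 7.55 and 6.89 in ldCil and 6.53, 6.58, 6.55 and 6.48 in AngII + ldCil. The AngII + ldCil libraries lay close together and below all 4 ldCil libraries, with a fold of −0.64 (SE 0.158). *Clcf1*, a cytokine of the cardiotrophin family, read 3.48, 3.56, 4.66 and 3.08 without AngII and 2.02, 1.87, 1.98 and 1.85 with it. This was the largest fold of the 10, −1.77 (SE 0.454), and S11 was the highest library.

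*Chst11*, which sulphates chondroitin, read 5.22, 5.23, 5.63 and 4.02 in ldCil and 3.82, 3.46, 2.97 and 3.45 in AngII + ldCil, a fold of −1.60 (SE 0.377). S12 lay close to the AngII + ldCil libraries but did not overlap with them. *Bcr*, a regulator of small GTPases, read 6.78, 6.76, 7.97 and 6.22 against 5.89, 5.85, 5.31 and 5.58, a fold of −1.27 (SE 0.348). *Pik3r5*, a regulatory subunit by which G proteins recruit phosphoinositide 3-kinase, read 2.24, 2.12, 2.08 and 2.06 against 1.5045, 1.26, 1.15 and 1.00, a fold of −0.90 (SE 0.209). In *Pik3r5* the ldCil libraries lay close together. *B4galnt1*, a ganglioside synthase, *Als2cl* and *1700025G04Rik* were lower by 0.80, 1.01 and 0.67 on the log2 scale, also with no overlap. *Cnksr1*, a scaffold of RAS signalling, was lower by 1.23 and overlapped, at 0.73 in S12 and 0.76 in S15.

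Among the 10 higher genes with the smallest p, 4 encode proteins that bind or shape actin filaments or the cell cortex. *Filip1*, a partner of filamin, read 5.64, 5.50, 5.39 and 5.64 in ldCil and 5.97, 5.91, 6.42 and 6.35 in AngII + ldCil, a fold of 0.62 (SE 0.155). *Cfl2*, the muscle cofilin that severs actin filaments, read 8.17, 8.16, 7.77 and 8.14 against 8.57, 8.51, 8.55 and 8.50, a fold of 0.47 (SE 0.132). The 4 AngII + ldCil libraries lay close together, above every ldCil library. *Eps8*, which caps and bundles actin, read 2.58, 2.43, 2.63 and 2.91 against 3.28, 3.17, 3.06 and 3.14, a fold of 0.53 (SE 0.145). *Frmd5*, a FERM domain protein of cell adhesion, read 4.71, 4.78, 4.39 and 4.13 against 5.22, 5.44, 5.69 and 5.65, a fold of 1.00 (SE 0.285). All 4 genes showed no overlap. The actin theme was seen after the genes were ranked and was not tested.

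Of the other 6 higher genes, 3 are processed pseudogenes. *Gm15920*, *Ndufab1-ps* and *Gm10355* had folds of 0.52, 0.60 and 1.30, and their reads may be shared with their parent genes, so their values are uncertain. *Mycbp*, which encodes a partner of the MYC protein, had a fold of 0.44 (SE 0.119). *1190007I07Rik* and *0610012G03Rik*, both protein-coding, had folds of 0.80 and 0.43. Where the groups do not overlap, the sign within each set of libraries is fixed, but the size can differ. In *Frmd5* the fold was 0.59 in the first and 1.41 in the second, and in *Gm10355* 1.88 and 0.72. The adjusted p was 0.974 for each of the 20, and the exact permutation p over the 8 libraries was 0.0286 for 19 of them, the smallest that 4 against 4 allow and the value of every gene whose groups do not overlap.

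**Figure D2:**
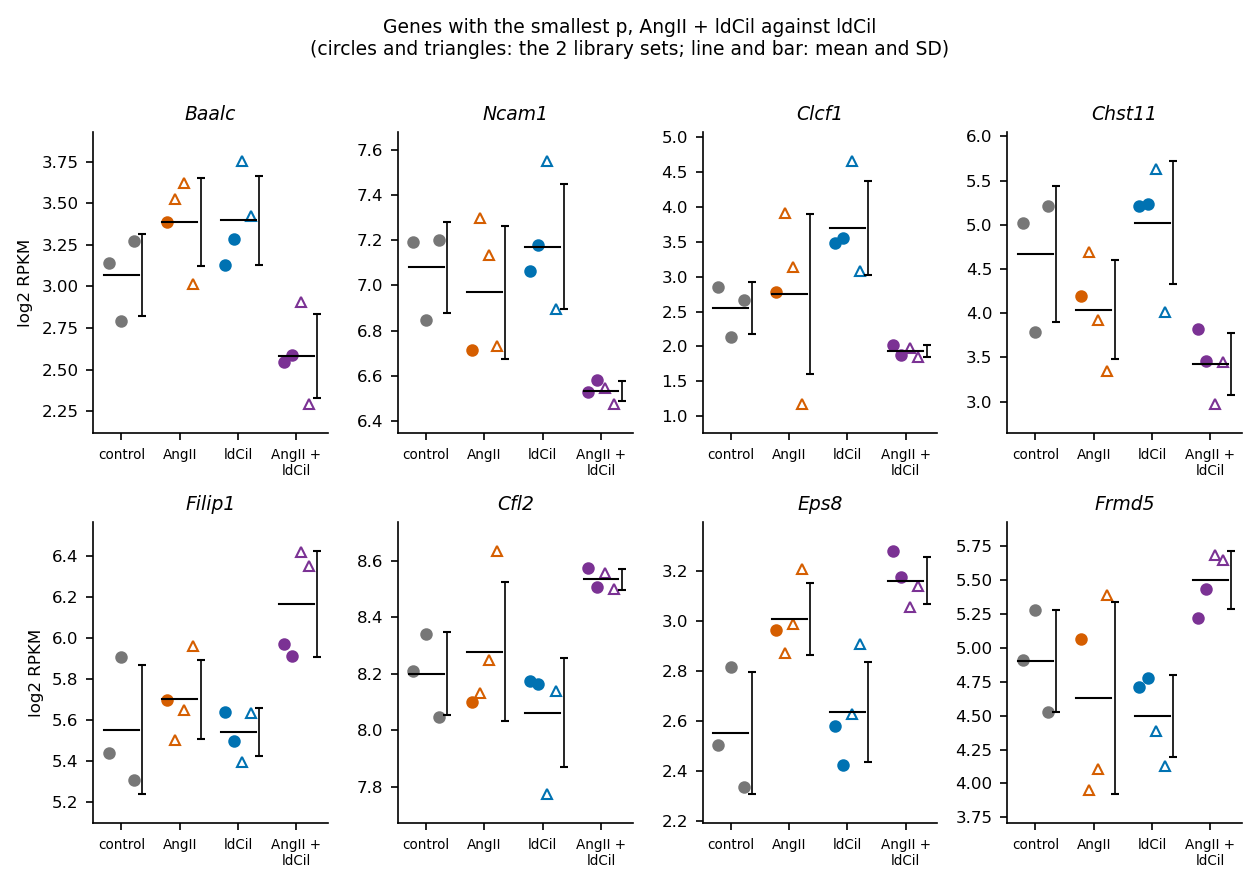
Log2 RPKM (y axis) of 4 lower and 4 higher genes among those with the smallest p, in each library of the 4 treatments (x axis), with circles and open triangles for the 2 sets of libraries and the mean and SD per treatment. The AngII + ldCil libraries lie below all ldCil libraries in the upper row and above them in the lower row, with *Cfl2* between 8.50 and 8.57.

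Genes at the start of the AngII pathway did not separate the groups. *Agtr1a*, the type 1 receptor, read 1.22, 1.15, 0.42 and 1.34 in ldCil and 1.27, 1.40, 1.36 and 1.24 in AngII + ldCil. The groups overlapped, S11 alone was low, and the fold was 0.28 with a 95% interval from −0.20 to 0.77. *Agtr1b* and *Agtr2* were not analysed here. Of the 9 genes tested of 15 for angiotensin receptors and peptide processing, 0 passed an unadjusted p of 0.05, and their median fold was −0.00. Of 28 genes for Gq, calcineurin and calcium signalling, 0 passed, with a median of 0.02. *Prkd1*, the protein kinase D that acts below protein kinase C, had the smallest p of them. It read 2.62, 2.69, 2.98 and 2.72 against 2.35, 2.48, 2.43 and 2.29, with no overlap and a fold of −0.37.

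Immediate early genes, the transcription factors that hormones switch on first, mostly had folds below 0 at harvest. Of 24 tested, 18 had a fold below 0 and the median was −0.34, against 0.03 over all genes. At an unadjusted p of 0.05, 6 were lower and 1 higher (29.2% of the list, against 5.07% of all genes). *Fosl1*, a FOS partner of JUN, read 3.70, 3.92, 5.50 and 3.68 in ldCil and 3.02, 2.93, 2.82 and 3.11 in AngII + ldCil, a fold of −1.23 (SE 0.417). The groups did not overlap, and S11 stood far above the other libraries. *Atf3*, a stress-induced factor, read 3.62, 3.38, 5.28 and 3.68 against 3.06, 3.19, 3.11 and 2.62, lower by 0.995 (SE 0.330). Without S11 the folds were −0.80 and −0.56.

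The other lower members were *Egr2* (−0.79), *Maff* (−0.57), *Junb* (−0.52) and *Ier2* (−0.34). *Jund*, the JUN form present at rest, was the higher one, at 6.31, 6.59, 7.01 and 6.42 against 6.99, 7.19, 6.74 and 7.26, a fold of 0.46 with an overlap between S11 and S15. *Egr1* and *Zfp36* did not overlap but missed the threshold, with folds of −0.50 and −0.34. The list median was −0.33 within the first set and −0.32 within the second, where S11 belongs. The list and its members were chosen with earlier results of these data known.

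Feedback genes of RAS-ERK signalling, most of which restrain it, differed among themselves. The list also holds the transcription factors *Etv4* and *Etv5*, which do not restrain the cascade. *Errfi1*, an inhibitor of the EGF receptor, read 4.74, 4.53, 7.28 and 5.29 in ldCil and 3.90, 3.86, 4.21 and 3.54 in AngII + ldCil, a fold of −1.58 (SE 0.559). *Spred2* was lower by 0.58. *Dusp8*, a phosphatase of MAP kinases, read 3.84, 4.07, 2.94 and 3.91 against 4.36, 4.23, 4.89 and 4.20, a fold of 0.73 (SE 0.258). All 3 showed no overlap, and S11 was the extreme ldCil library in each. These were the 3 of 19 past an unadjusted p of 0.05 (15.8%, against 5.07% of all genes). The list median of −0.19 became −0.016 without S11, −0.063 without S12, −0.073 without S9 and −0.11 without S10.

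Genes of hypertrophy and the fetal program did not separate the groups. Of 18, 1 passed an unadjusted p of 0.05 (5.56%, near the 5.07% of all genes), *Uchl1*, lower by 0.54. The median of 0.13 ran from −0.07 without S9 to 0.31 without S11. *Nppa*, atrial natriuretic peptide, read 11.98, 11.98, 12.40 and 11.98 in ldCil and 11.73, 11.73, 11.98 and 12.40 in AngII + ldCil. S11 and S16 sat at the same top value, and the fold was −0.13 with a 95% interval from −0.50 to 0.25. *Nppb*, brain natriuretic peptide, had a fold of 0.28 with an interval from −0.32 to 0.88. *Myh7*, the fetal myosin heavy chain, read 6.11, 6.14, 6.60 and 6.84 against 6.31, 6.15, 7.16 and 8.68, a fold of 0.65 (95% interval −0.24 to 1.54). S16 alone was far above the ldCil range, and without it the fold was 0.12. *Acta1*, skeletal actin, had a fold of 0.44 with an interval from −0.92 to 1.81. Of 22 genes of contraction and calcium handling, *Actc1* alone passed (4.55%, near the 5.07% of all genes), higher by 0.30.

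Of the integrin and adhesion genes, *Itga5*, the fibronectin receptor chain, had the smallest p. It read 7.19, 7.20, 7.99 and 7.04 in ldCil and 6.87, 6.72, 6.93 and 6.53 in AngII + ldCil, with no overlap and a fold of −0.59 (SE 0.190). It was the 1 of 20 genes past an unadjusted p of 0.05 (5%, near the 5.07% of all genes). *Itgb3*, the β3 chain that cilengitide binds, read 3.63, 3.71, 3.86 and 3.37 against 2.93, 2.52, 3.42 and 2.89. Only S15 overlapped with ldCil, and the fold was −0.70 (95% interval −1.43 to 0.03, exact permutation p = 0.0571). *Itgav* had a fold of 0.09 and *Itgb5* of 0.14, both overlapping.

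Of 30 matrix and profibrotic genes, 2 were higher and 2 lower at an unadjusted p of 0.05 (13.3%, against 5.07% of all genes). *Tgfb1*, the main profibrotic cytokine, read 4.87, 5.10, 5.02 and 4.65 in ldCil and 4.63, 4.40, 4.30 and 4.30 in AngII + ldCil, a fold of −0.50 (SE 0.165). S12 and S13 nearly met, with no overlap. *Tgfb3* and *Timp2*, an inhibitor of matrix proteases, were higher by 0.56 and 0.47, and *Tnc*, tenascin C, was lower by 0.99. The list median of −0.09 was 0.19 within the first set and −0.38 within the second, and it became 0.14 without S16. In the second set the fibroblast markers had a median of −0.20, against 0.33 in the first, and their part in this difference was not tested.

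Genes of the PERK-ATF4 pathway, in which a blocked translation factor lets the transcription factor ATF4 switch on amino acid synthesis and stress genes, mostly had folds below 0. Of 32 tested, 26 had a fold below 0, with a median of −0.18, while 57.0% of all genes had a fold above 0. Only 4 were lower and none higher at an unadjusted p of 0.05 (12.5%, against 5.07% of all genes), and 28 did not pass. *Ddit3*, the stress factor CHOP, read 5.47, 5.62, 5.00 and 4.99 in ldCil and 4.94, 4.83, 4.88 and 4.77 in AngII + ldCil. The groups did not overlap, with S11 and S12 just above S13, and the fold was −0.41 (SE 0.134). *Psat1*, an enzyme of serine synthesis, read 4.83, 4.98, 4.87 and 4.57 against 4.48, 4.57, 4.56 and 4.13, a fold of −0.38 (SE 0.125). *Nupr1*, a stress-induced nuclear protein, read 4.53, 4.54, 4.92 and 4.46 against 4.46, 4.25, 3.9974 and 3.64, a fold of −0.53 (SE 0.162), and the groups overlapped narrowly in S12 and S13. *Nars*, an aminoacyl-tRNA synthetase, had a fold of −0.24.

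The list median was −0.27 within the first set and 0.07 within the second. *Psat1* had a fold of −0.38 within each. *Ddit3* had −0.66 and −0.17, and *Trib3*, a pseudokinase switched on by ATF4 and CHOP, −1.31 and 0.45. *Asns*, asparagine synthetase, had −0.52 and 0.13. Beside this, S9 and S10 were the libraries high in interferon genes. The list median was −0.040 without both and −0.13 with the interferon mean as a covariate, and −0.096 without S14.

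The promoters of PERK-ATF4 members are shown because 3 of them, *Ddit3*, *Psat1* and *Nupr1*, passed an unadjusted p of 0.01, and *Asns* because its regulation through ATF4 is well known. Of the 34 genes on the list, 26 had a promoter window in RefSeq (build GRCm38.p6). The window before the start was searched on both strands for TGATGNAA, the form of element that ATF4 and its partners bind, for TGANTCA (AP-1), TGACGTCA (the cAMP response element), TATAAA (the TATA box) and the CArG box of SRF. TGATGNAA was found in 8 of these 26 genes and in 3.45% of all 32851 windows. TGANTCA was in 6.75%, TGACGTCA in 1.55%, TATAAA in 12.4% and the CArG box in 1.47% of all windows. The 2 windows of *Psat1* held none of the motifs. In the 3 windows printed, capitals mark the match, which is TGANTCA 242 bases before the start in *Ddit3*, TGATGNAA read on the other strand 110 bases before it in *Nupr1*, and TGATGNAA 23 bases before it in *Asns*. A match is a description of the letters and no more.
Ddit3, chr10:127290543-127290792, plus strand: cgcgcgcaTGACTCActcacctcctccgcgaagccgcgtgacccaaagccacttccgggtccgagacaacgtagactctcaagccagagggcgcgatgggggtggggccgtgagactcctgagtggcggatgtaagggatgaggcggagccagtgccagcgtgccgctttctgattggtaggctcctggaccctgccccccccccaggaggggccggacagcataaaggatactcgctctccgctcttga
Nupr1, chr7:126625471-126625720, minus strand: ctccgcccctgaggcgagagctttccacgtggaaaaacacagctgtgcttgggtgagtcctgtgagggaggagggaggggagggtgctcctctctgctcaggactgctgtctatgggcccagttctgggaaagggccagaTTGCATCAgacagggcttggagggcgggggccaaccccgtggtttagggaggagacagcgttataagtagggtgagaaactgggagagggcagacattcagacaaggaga
Asns, chr6:7693210-7693459, minus strand: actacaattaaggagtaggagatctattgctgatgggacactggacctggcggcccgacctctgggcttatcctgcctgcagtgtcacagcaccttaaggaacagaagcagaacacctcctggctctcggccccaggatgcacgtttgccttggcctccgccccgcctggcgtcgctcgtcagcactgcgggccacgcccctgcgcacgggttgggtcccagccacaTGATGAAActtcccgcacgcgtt

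Genes of the list of antioxidant genes and targets of the factor NRF2 were lower in part. The list also holds *Nfe2l2*, which encodes NRF2, and *Cybb*, *Cyba* and *Nox4*, genes of the superoxide-forming NADPH oxidases. Of 22, 5 were lower and 1 higher at an unadjusted p of 0.05 (27.3%, against 5.07% of all genes), and the median of −0.30 ran from −0.44 without S15 to −0.18 without S11. *Srxn1*, sulfiredoxin, read 5.80, 5.69, 6.61 and 5.27 in ldCil and 4.69, 4.86, 5.11 and 4.90 in AngII + ldCil, with no overlap and a fold of −0.95 (SE 0.282). *Nqo1*, a quinone reductase, read 5.67, 5.68, 5.06 and 4.60 against 4.58, 4.73, 4.23 and 3.71, a fold of −0.94 (SE 0.305), and S12 and S14 crossed. *Txnrd1*, thioredoxin reductase, *Sod3*, extracellular superoxide dismutase, and *Mt2*, a metallothionein, had folds of −0.72, −1.21 and −1.45. *Gpx1*, a glutathione peroxidase that is not a main NRF2 target, was higher, at 7.03, 7.07, 7.08 and 7.04 against 7.36, 7.28, 7.26 and 7.43, a fold of 0.28 (SE 0.0867). Both groups of *Gpx1* were tight and did not overlap. The list median was −0.33 within the first set and −0.19 within the second, and *Srxn1* had −0.97 and −0.93.

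Glycolysis genes mostly had folds below 0, and those of mitochondrial respiration folds above 0. Of 20 glycolysis genes 16 had a fold below 0, and 57.0% of all genes had one above it. The median of −0.26 ran from −0.42 without S15 to −0.16 without S16. The threshold of an unadjusted p of 0.05 was passed by 3 lower genes and 1 higher gene (20.0%, against 5.07% of all genes). *Ldha*, lactate dehydrogenase, read 9.44, 9.51, 9.86 and 9.69 in ldCil and 9.28, 9.29, 9.39 and 8.92 in AngII + ldCil, a fold of −0.40 (SE 0.152). *Pkm*, pyruvate kinase, had a fold of −0.43, and S16 was the lowest library in both genes. *Pgk1* had −0.36, and *Slc16a1*, a lactate transporter, 0.50. The list median was −0.17 within the first set and −0.29 within the second.

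Of 38 subunits of respiratory complexes I to V, 37 had a fold above 0 and none passed an unadjusted p of 0.05, with a median of 0.22. The median was 0.32 within the first set and 0.07 within the second, and 0.13 without S11. Of 20 genes of the tricarboxylic acid cycle and pyruvate metabolism 19 were above 0, with a median of 0.14 and none past the threshold. That median was 0.24 within the first set and 0.03 within the second, and it became 0.037 without S11 and 0.045 without S15. Over all genes 57.0% of folds were above 0. Medians were 0.07 for 25 fatty acid oxidation genes, 0.03 for 38 cytosolic ribosomal proteins and −0.02 for 20 genes of protein folding in the endoplasmic reticulum, with none past the threshold in any of the 3.

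Insulin signalling genes held 1 of the higher genes of small p. *Insr*, the insulin receptor, read 5.53, 5.40, 4.70 and 5.17 in ldCil and 5.71, 5.66, 5.59 and 6.28 in AngII + ldCil, with no overlap and a fold of 0.61 (SE 0.184). S16 was highest and S11 lowest, and without both the fold was 0.28. *Igf1r*, the receptor of insulin-like growth factor, was higher by 0.32, and these were the 2 of 25 past an unadjusted p of 0.05 (8.00%, near the 5.07% of all genes). Of 23 cholesterol synthesis genes 16 had a fold above 0, and the median was 0.20, with 0.01 within the first set and 0.29 within the second. It became −0.067 without S11, 0.12 without S13, 0.10 without S14 and 0.34 without S9. Of 35 cell cycle and DNA replication genes 33 had a fold above 0, with a median of 0.18 and none past the threshold. That median was 0.02 within the first set and 0.32 within the second, and it ran from 0.090 without S12 to 0.27 without S16.

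Interferon response genes had the lowest median of the lists, −1.37 over 28 genes, with 27 below 0, but only 2 passed an unadjusted p of 0.05 (7.14%, against 5.07% of all genes). *Oas2*, an antiviral enzyme, read 3.21, 2.68, −0.74 and −1.06 in ldCil and −1.50, −1.23, −2.24 and −1.70 in AngII + ldCil, a fold of −2.69 (SE 0.975). S9 and S10 lay far above S11 and S12, which lay near the AngII + ldCil libraries. *Irf9*, a subunit of the interferon-activated factor, was lower by 0.90 and overlapped. The list median was −2.90 within the first set and 0.03 within the second, and 0.62 over all genes of the list without S9 and S10. Leaving out 1 library, it ran from −2.07 without S11 to −0.71 without S9.

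Chemokines and inflammatory cytokines had the same form. All 22 had a fold below 0, with a median of −1.21, and 4 passed an unadjusted p of 0.05 (18.2%, against 5.07% of all genes). *Il33*, an alarm cytokine, read 2.20, 1.96, 2.91 and 1.42 in ldCil and 0.64, 0.49, 1.36 and 1.14 in AngII + ldCil, with no overlap and a fold of −1.21 (SE 0.400). *Lif*, *Cxcl10* and *Ptgs2*, the inducible cyclooxygenase, were lower by 1.35, 1.64 and 1.22 and overlapped. The median was −1.92 within the first set, −0.29 within the second and 0.23 without S9 and S10. Leaving out 1 library, it ran from −1.75 without S11 to −0.57 without S9.

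Of the cell type markers, medians were 0.05 for 17 cardiomyocyte, −0.11 for 12 fibroblast, −0.01 for 10 smooth muscle and pericyte, 0.27 for 12 endothelial and −0.03 for 12 macrophage and leukocyte markers. The endothelial median became 0.066 without S13, the library highest in that list at 0.92. The macrophage median ran from −0.32 without S13 to 0.42 without S16, and the fibroblast median became 0.23 without S16. Medians were −0.27 for 9 epicardial and mesothelial and 0.47 for 3 neuronal and Schwann cell markers. *Krt18*, a keratin of mesothelial cells, read 6.90, 6.85, 8.78 and 6.07 in ldCil and 5.38, 5.65, 5.39 and 6.44 in AngII + ldCil, a fold of −1.44 (SE 0.458) with an overlap in S16. *Upk3b*, a mesothelial gene, had the opposite fold, 1.43. *Csrp3*, a cardiomyocyte protein of the Z-disc, was higher by 0.74 and highest in S15 and S16.

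**Figure D3:**
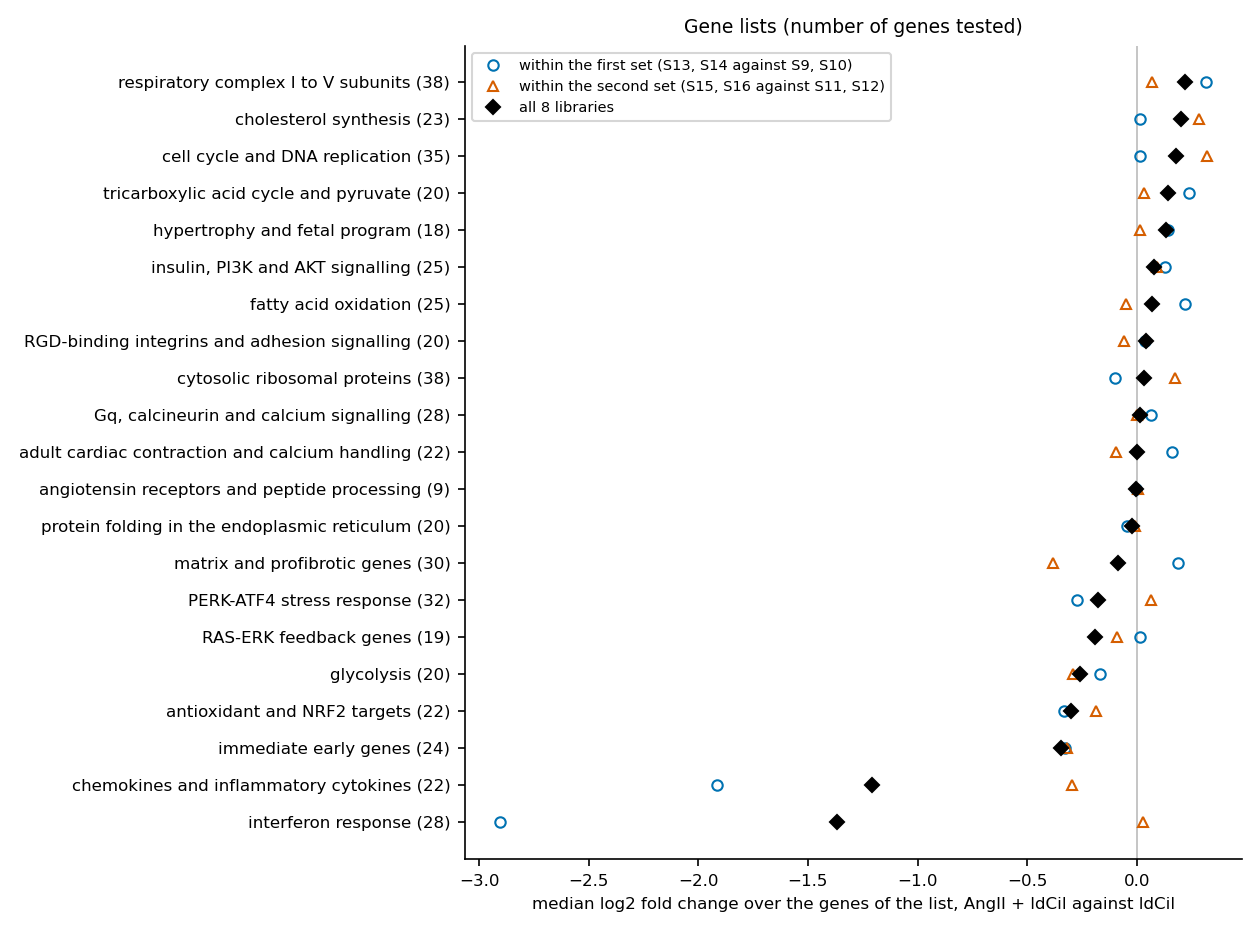
Median log2 fold change (x axis) of the 21 pathway lists (y axis, with the number of genes tested), for AngII + ldCil against ldCil over all 8 libraries (diamonds), within the first set (circles) and within the second (triangles). The interferon list reads −2.90 in the first set and 0.03 in the second, while the immediate early list reads −0.33 and −0.32.

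Single response genes differed in how far the 2 sets shared a direction. *Fosl1* had a fold of −0.83 in the first and −1.63 in the second, and *Ldha* −0.19 and −0.62. Their sign within each set follows from the lack of overlap over all 8 libraries. *Trib3* was lower in the first set and higher in the second, with no overlap in either. Over all 12848 genes, 794 (6.18%) were higher and 499 (3.88%) lower in both sets with no overlap within each, and 818 went opposite ways. The sign agreed in 54.1% of genes, with a correlation across genes of r = 0.0754 (rho = 0.0950). Genes are not independent replicates, and each value carries the noise of 2 against 2 libraries.

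**Figure D4:**
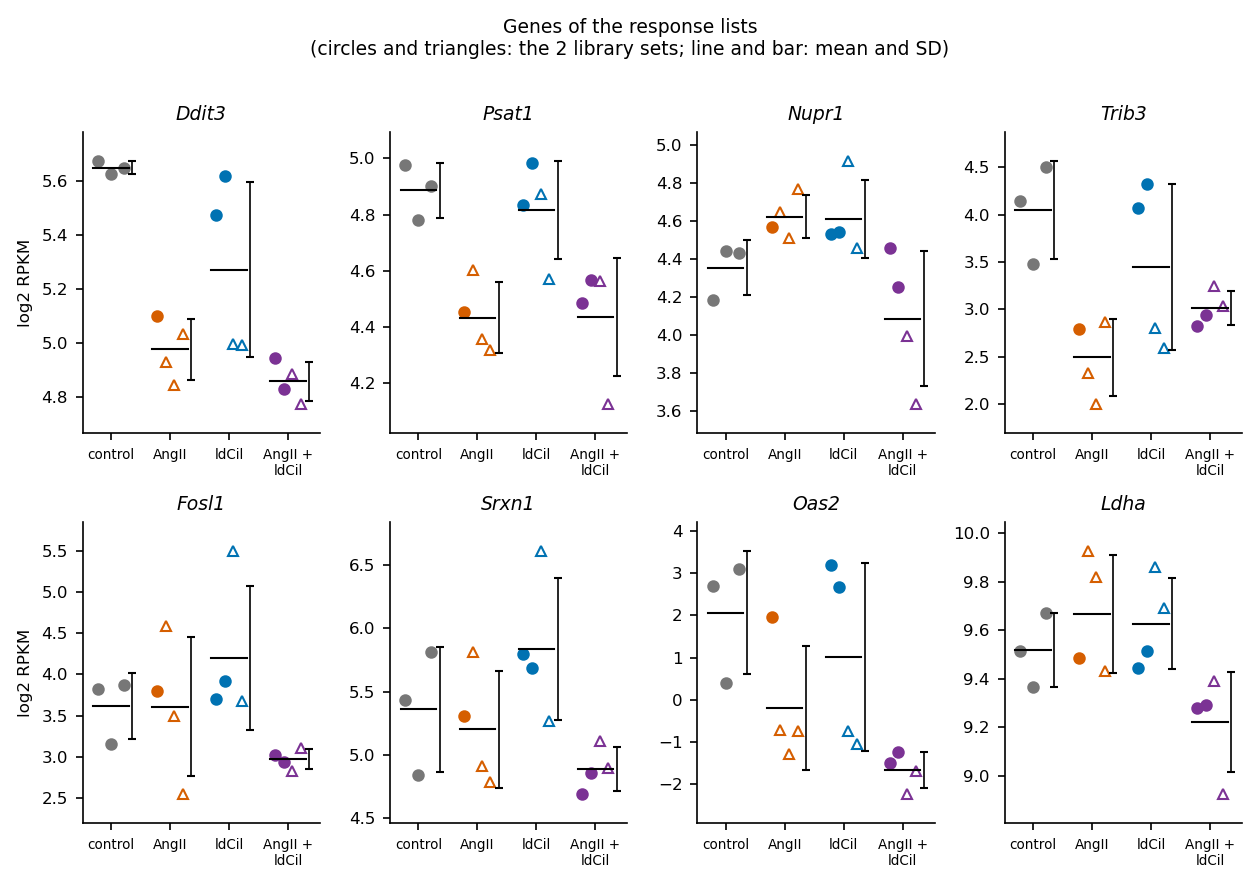
Log2 RPKM (y axis) of 8 genes of the response lists in each library of the 4 treatments (x axis), with circles and open triangles for the 2 sets of libraries and the mean and SD per treatment. *Oas2* reads 3.21 and 2.68 in S9 and S10 against −0.74 and −1.06 in S11 and S12, while the 4 AngII + ldCil libraries of *Srxn1* lie between 4.69 and 5.11, below every ldCil library.

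The second question was whether AngII had the same effect with and without ldCil. AngII against control shares no library with AngII + ldCil against ldCil. Its control libraries all lay in the first set, and its AngII libraries lay in the second except S5. The folds of AngII against control, and so the interaction, therefore also carry the difference between the sets. AngII against control also gave 0 genes at an adjusted p of 0.05 (limma, smallest adjusted p 0.782). At an unadjusted p of 0.01 there were 118 (0.918%), 70 higher (0.545%) and 48 lower (0.374%). At 0.05 there were 776 (6.04%), 438 higher (3.41%) and 338 lower (2.63%), and the libraries did not overlap for 8.74% of genes. Here 4 libraries were set against 3, which separate more easily by chance than 4 against 4. This share therefore cannot be compared with the 3.28% for AngII + ldCil against ldCil. The test of the difference between the AngII effects, the AngII by ldCil interaction, gave 0 genes (smallest adjusted p 0.958). At an unadjusted p of 0.01 it gave 75 (0.584%), and at 0.05 it gave 496 (3.86%), 237 of them positive (1.84%) and 259 negative (2.02%). No gene was therefore shown to have an AngII effect that depends on ldCil in this fit, whereas 2387 genes passed the adjusted threshold with library weights.

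The genes given here, with a small interaction p, had opposite folds, which a choice by the interaction favours. *Baalc* was lower by 0.81 with ldCil and had a fold of 0.32 without it, a difference of −1.13 (SE 0.272). *Ifrd1*, a transcriptional regulator of muscle, had a fold of −0.52 with ldCil and 0.74 without it. *Sprr1a*, a small proline-rich protein of stressed cardiomyocytes, had −1.31 and 1.51, and S11 was its highest ldCil library at 10.24. *Atf3* had −0.995 and 0.53, *Nupr1* −0.53 and 0.27, *Insr* 0.61 and −0.26, *Itga5* −0.59 and 0.27, and *Gpx1* 0.28 and −0.13. Each of these differences had an unadjusted p under 0.01 and an adjusted p of 0.958. Immediate early genes had a median of 0.02 without ldCil and −0.34 with it, and glycolysis genes of 0.05 and −0.26, with no test of the difference over the lists.

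Genes chosen in AngII against control kept their direction more often than not. Of the 118 genes at an unadjusted p of 0.01 there, 83 (70.3%) had the same sign in AngII + ldCil against ldCil, against 51.9% of all genes. The 70 higher genes had a median fold of 1.19 without ldCil and 0.11 with it, and the 48 lower genes −0.68 and −0.20. Only 31 of the 118 kept their sign without S9 and S10 (26.3%, against 34.0% of all genes). That removal left ldCil libraries of the second set only, against AngII + ldCil libraries of both sets. The share was 75.4% without S11 and S16 (against 62.6%) and 48.3% with the interferon mean as a covariate (against 40.8%). Why the agreement changed was not tested. In AngII against control, S1 and S3 were the control libraries high in the interferon list and S5 the AngII library high in it.

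Only *Ddit3* and *Psat1* passed an unadjusted p of 0.01 in both, lower in each. *Ddit3* had a fold of −0.67 without ldCil and −0.41 with it, and *Psat1* −0.45 and −0.38. The interaction p was 0.212 and 0.6996, which does not show that the effects were alike. Without S9 and S10 the folds with ldCil were −0.14 for *Ddit3* and −0.29 for *Psat1*. At an unadjusted p of 0.05, 36 genes passed in both with the same sign (9 higher and 27 lower) and 12 with opposite signs. The next of them, chosen after their values were seen, were *Eps8*, with 0.46 without ldCil and 0.53 with it, *Nars* with −0.32 and −0.24, *Lgals8*, a galectin, with −0.59 and −0.57, and *Atp5k*, a subunit of ATP synthase, with 0.46 and 0.37.

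The genes with the smallest p for AngII in the absence of ldCil are given with their folds in its presence. *Rln1*, a relaxin hormone, had a fold of 2.10 without ldCil and 0.11 with it (interaction −1.99). *Dclk2*, a kinase of microtubules, had 1.45 and −0.01, and *8430422M14Rik* had 2.08 and −0.20, and for these 3 genes the interaction p was under 0.01. *Il17d*, a cytokine, had 2.23 and 0.76, and *Lockd*, a long non-coding RNA, 1.41 and 0.43. Of the lower genes *Asns* had −0.71 and −0.20, *Trib3* −1.55 and −0.43, *Cgnl1*, a junction protein, −0.61 and −0.32, and *Hspa9*, a mitochondrial chaperone, −0.39 and −0.15. These genes were chosen on the first value, so the pairs of values are a description.

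Of the genes set by name, *Lppos*, *Rasa4*, *Nlgn2* and *Otub2* are among those the paper gives as most significantly changed in AngII-stimulated cardiomyocytes. That choice favours a larger fold without ldCil, so their pairs of values are a description. *Lppos* had a fold of 0.90 without ldCil and 0.23 with it. *Rasa4*, a RAS GTPase activator, had 0.73 and 0.08, and *Otub2*, a deubiquitinase, −0.73 and −0.21. *Nlgn2*, neuroligin, had −0.75 and −0.56 and read 3.87, 3.57, 3.07 and 2.74 in ldCil against 3.04, 2.70, 2.35 and 2.92 in AngII + ldCil. In *Nlgn2* S12 lay below S13 and S16, so the groups overlapped, and its interaction p was 0.589.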

How the data were processed

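RNA-Seq was carried out on 15 libraries of mouse cardiomyocytes in 4 treatments. The deposited values are log2 RPKM, which the authors normalised by conditional quantile normalisation for length, GC content and a common distribution. Per the labels, reads were aligned with HISAT2 to GRCm38 and counted with HTSeq, while tool versions and the strand setting are not given in the sources used. No read counts were used, so depth is unknown. Gene names were matched to GENCODE for 14329 of 14337 genes, and reads of antisense or overlapping genes may not be told apart.

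Genes whose mean reached 0 on the log2 scale were fitted in limma 3.58.1 (R 4.3.3), with 1 mean per treatment, a trend and no pseudocount. P-values were 2-sided with Benjamini-Hochberg adjustment over 12848 genes, and the fit was tested on simulated data. Those data had independent noise in each library and no library sets, so they do not show how the fit behaves with such sets. Exact permutation tests used the 8 libraries. No test was run over a list.

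Named genes were the 10 with the smallest p in each direction, the 3 members of smallest p in each list, the 5 of smallest p in each direction of AngII against control and of the interaction, 14 genes set by name, and the most abundant markers. Further list members, and genes at small p in both AngII contrasts, were added after their values were seen. The members and lists were chosen with earlier results of these data known. Alternatives changed the filter, pseudocount, scaling, variance model, weights, covariate and libraries. Some results that meet the rule for named genes are not reported here.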

Additional observations from a re-analysis of the deposited data

Results flagged for a closer look

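Single libraries stood apart from the other 3 of their treatment past Dixon's 95% value in 30 of 346 groups tested, 26 of single genes and 4 of list means. Chance gives about 1 in 20 groups.

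In the ldCil library S9, *Etfb* at −2.04 stood apart on the log2 RPKM scale. In the ldCil library S11, *Cfl2* at 7.77, *Atf3* at 5.28, *Fosl1* at 5.50, *Itga5* at 7.99, *Acadl* at 7.60, *Acta2* at 9.19, *Nppa* at 12.40, *Egr2* at 3.27 and *Zfp36* at 5.31 stood apart on the log2 RPKM scale. In S11 so did the neuronal and Schwann cell markers list mean at −1.07. *Nppa* could differ only in steps and was tied in the other ldCil libraries, so its flag carries little meaning. In the ldCil library S12, *Uchl1* at 4.72, *Idh3b* at 7.48 and *Mt2* at 4.14 stood apart on the log2 RPKM scale. In S12 so did the antioxidant and NRF2 targets list mean at 0.0176 and the smooth muscle and pericyte markers list mean at 0.25. In the AngII + ldCil library S14, *Egr2* at 1.73 and *Egr1* at 4.87 stood apart on the log2 RPKM scale. In the AngII + ldCil library S15, *Timp2* at 8.10, *Fabp3* at 8.32, *8430422M14Rik* at 1.95 and *Ptgs2* at 3.97 stood apart on the log2 RPKM scale. In the AngII + ldCil library S16, *Irf1* at 2.07, *Dlat* at 6.94, *Pkm* at 8.80, *Tcf21* at 4.73, *Spata13* at 5.74, *Txnrd1* at 6.98 and *Slc16a1* at 6.64 stood apart on the log2 RPKM scale. In S16 so did the Gq, calcineurin and calcium signalling list mean at −0.16.

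The AngII effect differed between cells with and without ldCil at an unadjusted p of 0.01 in 19 of the 145 genes named, none of them at an adjusted p of 0.05 (limma). Over all genes 75 (0.584%) did so, and 496 at an unadjusted p of 0.05. Genes were named partly for a small p, 10 of them for the interaction itself, so the share among them is raised by the choice. The interaction, in log2 units with the effect in ldCil minus that without it, was positive for *Frmd5* 1.28, *Insr* 0.86, *Gpx1* 0.40, *Gm10727* 1.68, *Decr2* 0.96, *Spata13* 1.04, *Usp40* 0.51 and *D830005E20Rik* 1.03. It was negative for *Baalc* −1.13, *1700025G04Rik* −1.03, *Atf3* −1.52, *Itga5* −0.87, *Nupr1* −0.80, *Rln1* −1.99, *Dclk2* −1.46, *8430422M14Rik* −2.28, *Zcchc7* −0.85, *Ifrd1* −1.27 and *Sprr1a* −2.82. *D830005E20Rik* is an antisense gene, and its reads cannot be told apart from those of its partner if the counting ignored strand.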

How the results depend on the processing

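No paired analysis was possible because the labels give no replicate numbers, and those used here only name the libraries in order. No alternative removed or reversed an adjusted call, since none was made. Another filter, pseudocount, scaling or variance model moved no count of genes by over 1.5 times, except that 46 genes of the AngII contrast kept their sign where a mean of at least 2 was required, with fewer genes tested. That count was followed across the alternatives only after seeing the data. The causes of the values below were not tested.

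With library weights 1623 genes passed an adjusted p of 0.05, with 1078 higher and 876 lower at an unadjusted p of 0.01, and the interaction gave 2387 and 2482 genes at these thresholds. Medians became 0.27 for epicardial, 0.35 for smooth muscle and 0.0091 for RAS-ERK genes. *S100b* became −0.39, *Dclk2* 0.026 and *Itgav* −0.027. With 1 added to RPKM *S100b* was −0.020, and after quantile normalisation −0.012.

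With the interferon mean as a covariate 140 genes were higher and 204 lower at an unadjusted p of 0.01, the interaction gave 123, and the antioxidant median was −0.040. *Lnpep* became −0.069, *Rln1* −0.18 and *Rasa4* −0.12. Without S9 and S10 the groups did not overlap for 1190 higher and 789 lower genes, with fewer libraries, the interaction gave 436 genes and 31 genes of the AngII contrast kept their sign. Medians became −0.10 for antioxidant, 0.49 for cell cycle, 0.23 for chemokine, 0.57 for cholesterol and 0.62 for interferon genes. *Irf1* became 0.0052, *Fabp3* −0.035, *Dcn* 0.58, *Csf1r* 0.079, *Rln1* −0.41, *Il17d* −0.037, *Asns* 0.066, *Trib3* 0.32 and *Rasa4* −0.19.

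Chosen after seeing the data, a term for the 2 sets gave 101 higher and 185 lower genes and 284 for the interaction at an unadjusted p of 0.01. Without S11 and S16 there were 17 higher and 17 lower and 32 for the interaction. The groups then did not overlap for 713 higher and 501 lower genes, but fewer libraries separate more easily by chance. The RAS-ERK median became −0.024, *Rps16* −0.032, *S100b* −0.34, *Dclk2* 0.15 and *Itgav* −0.078.

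Leaving out 1 library at a time, genes at an unadjusted p of 0.01 ranged from 17 (S9) to 130 (S12) higher, from 28 (S10) to 142 (S12) lower, and from 34 (S1) to 173 (S8) for the interaction. Genes without overlap ranged from 285 to 863 higher and from 137 to 468 lower, both highest without S12. Leaving out a library of either group compared makes separation by chance easier. Medians ranged from −0.19 to −0.016 for RAS-ERK (S11), −0.43 to 0.16 for epicardial (S11), −0.44 (S15) to −0.18 for antioxidant and −0.12 to 0.29 (S16) for smooth muscle genes. *Rln1* ranged from −0.10 to 0.30, *Rasa4* from −0.027 to 0.19, *S100b* from −0.30 to 0.24, *Dclk2* from −0.19 to 0.27 and *Itgav* from −0.016 to 0.23. Depth is unknown, and 4 libraries a group in 2 sets limit what could be detected.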
